A study of Oryctolagus cuniculus with 12 samples.

Results

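The comparison asks how gene expression in the uterine body of rabbits given lipopolysaccharide (LPS) differed between animals with and without cyclosporine A (CsA). It uses the 3 libraries of the group LPS+CsA and the 3 of the group LPS. Every gene with at least 1 FPKM (fragments scaled to transcript length and to the mapped reads of the library) in at least 3 of these 6 libraries was taken, which gave 12292 of the 17301 genes in the deposited tables. Of these, 11307 have an Ensembl identifier and 985 are loci that the authors assembled. The rule was met in all 6 libraries by 11190 genes and in exactly 3 by 303, and 415 genes reached 1 FPKM in exactly 2 libraries and stayed outside it. It was met through LPS alone by 15 genes and through LPS+CsA alone by 17, so these 32 had to differ between the groups. All 32 are without overlap, 20 have an unadjusted p under 0.05 and 9 of those also a 2-fold difference, and the counts below include them.

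The animals were New Zealand White rabbits of 2.56 ± 0.13 kg, with estrus and ovulation synchronised by eCG and hCG in all of them, so that the groups share this hormone treatment. The LPS animals were given 4 mg/kg of LPS and saline in place of CsA, and the LPS+CsA animals the same LPS dose and 20 mg/kg of CsA into the muscle. The other 6 animals of the series, Control and CsA, were infused with saline in place of LPS and entered the model for the spread between animals. Uterine body tissue was taken after 3 h of treatment, and whole tissue was used, with 1 animal per library. The labels disagree on whether the infusion went into the uterus or the vagina, on the vehicle, and on the time of the CsA injection relative to it. No gene on the list of defining uterine markers has a symbol in the deposited files, so the tissue label could not be checked.

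LPS is an outer-membrane component of Gram-negative bacteria. Its receptor complex on epithelial cells and leukocytes starts NF-kB and interferon regulatory factor signalling, whose targets include chemokines, adhesion molecules and the feedback inhibitors of NF-kB itself. CsA enters cells and binds cyclophilin A, the product of PPIA. The complex blocks the phosphatase calcineurin, so that NFAT transcription factors stay in the cytoplasm and activated T cells do not switch on interleukin-2. In the uterus, leukocytes and plasma cells lie below and between a luminal and glandular epithelium, with stroma, vessels and smooth muscle beneath.

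The FPKM sums of the 6 libraries lay between 609398 and 705898, and between 12032 and 12398 genes reached 1 FPKM. Read totals are not known from the files. The first principal component held 30.1% of the variance and put LPS 1 and LPS+CsA 3 at opposite ends, and the second, with 23.7%, set LPS+CsA 2 apart. The difference between the groups held 22.9% of the variance. Any split of the 6 libraries into groups holds some of the variance, also under no difference, so this share does not measure an effect of CsA. Mean correlations with the own group and with the other group were close. They were 0.957 and 0.950 for LPS 1, where they lay furthest apart, and 0.956 and 0.956 for LPS+CsA 3. Symbols come from the authors' comparison tables and cover 225 of the 12292 genes, so most of the named genes were picked by the authors on these same animals, and their directions are not independent evidence. Some genes that every cell uses, such as PPIA, are listed at 0 in single libraries, so a value of 0 is given here as listed.

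No gene passed the test. At an adjusted p under 0.05 (limma, Benjamini-Hochberg over 12292 genes) the count was 0 of 12292 (0%), with a smallest adjusted p of 0.438. At an unadjusted p under 0.05 there were 1004 genes, and 638 without LPS 1, where 614.6 would be counted at that rate under no difference. Of the 1004, 600 (4.88%) were higher and 404 (3.29%) lower in LPS+CsA. That split depended on scaling, since median-of-ratios rescaling gave 505 higher and 515 lower and quantile normalization gave 472 higher and 568 lower. A 2-fold or larger difference on the log2(FPKM + 1) scale together with an unadjusted p under 0.05 was found for 53 genes (0.431%) that were higher and 29 (0.236%) that were lower. The 3 values of each group did not overlap for 1090 genes (8.87%) that were higher in every LPS+CsA library and 864 (7.03%) that were lower in every one. Together these were 1954 genes (15.9%). Under no difference a share of 0.1 would be counted over both directions, which is the smallest exact permutation p of 3 against 3. A lack of overlap in a single gene is therefore common.

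Most genes differed little. The median log2 difference, LPS+CsA minus LPS, was 0.01, its 5th and 95th percentiles were -0.43 and 0.52, and the median standard error was 0.18. A difference of at least 1 was seen for 174 genes, 111 higher and 63 lower, and of at least 2 for 26. The named genes below are therefore described by their values. The adjusted p of each gives how far it lay from the threshold. The percentages above cover all genes tested, but symbols and descriptions come from the authors' comparison tables. Of the 225 genes with a symbol, 72 had an unadjusted p under 0.05 (limma). Of the 174 genes tested that the authors listed for this comparison, 90 had an unadjusted p under 0.05 and 109 did not overlap. The counts for lists and groups below therefore follow in part from the authors' choice. Symbols of genes outside that list come from the authors' other tables, which use the same LPS animals. Their directions are not independent evidence either.

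**Figure D1:**
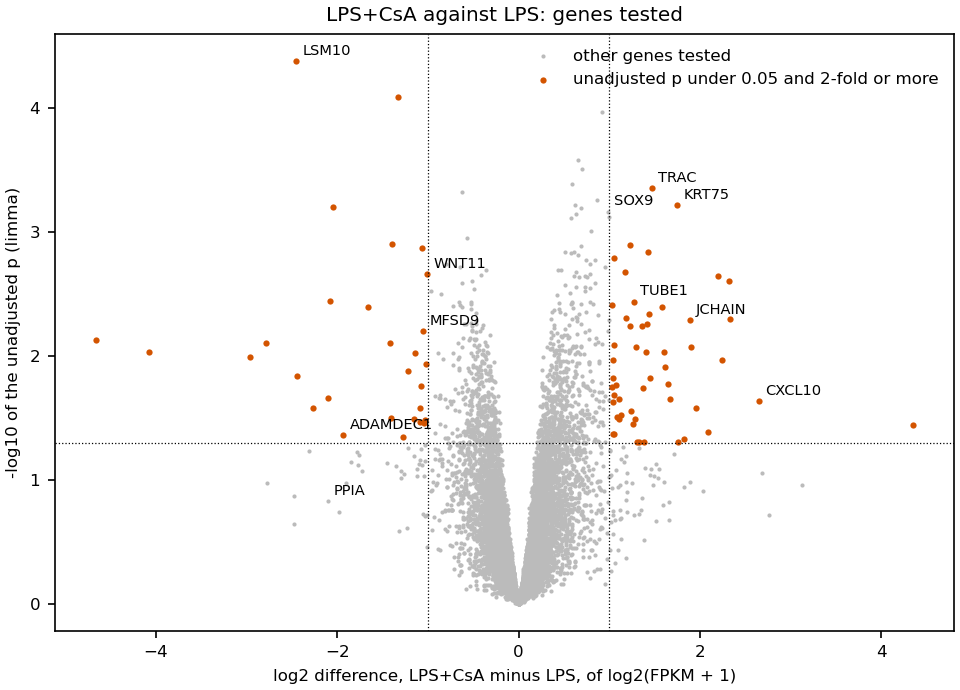
Log2 difference between LPS+CsA and LPS (x axis, log2(FPKM + 1) scale) against -log10 of the unadjusted limma p (y axis) for the 12292 genes. Orange points are the 82 genes past an unadjusted p of 0.05 (horizontal line) and a 2-fold difference (vertical lines), of which 53 lie on the right and 29 on the left, and none of the genes passed the adjusted threshold.

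The 12 genes with a symbol that stood higher in LPS+CsA and lay nearest to the threshold included TRAC of T cells, IGHM and MZB1 of plasma cells, and KRT75, KRT82 and SOX9 of epithelium. TRAC encodes the constant part of the T cell receptor alpha chain and had 0.655, 0.948 and 1.13 FPKM in LPS 1, 2 and 3 and 5.36, 5.99 and 2.29 in LPS+CsA 1, 2 and 3. All 3 LPS+CsA values lay above all 3 LPS values, and the log2 difference was 1.47 ± 0.30 (SE, n = 3 and 3, adjusted p = 0.558). In bulk tissue, fewer cells of a type and less RNA per cell cannot be told apart. TRAC stood at 2.54, 2.59 and 4.06 FPKM in the Control animals and 3.18, 3.99 and 1.99 in the CsA animals, so the LPS animals were the lowest of the 4 groups. It was the sole measured member with a symbol among the 30 genes of the T cell list.

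KRT75, a type II keratin, had 4.898, 5.602 and 6.58 FPKM in LPS 1, 2 and 3 and 25.7, 13.02 and 29.2 in LPS+CsA 1, 2 and 3. The lowest LPS+CsA animal was above the highest LPS animal, the mean was 3.98-fold that of LPS, and the log2 difference was 1.75 ± 0.37 (adjusted p = 0.558). A further type II keratin, KRT82, had 2.27, 2.65 and 1.92 FPKM in LPS 1, 2 and 3 and 5.99, 3.81 and 7.91 in LPS+CsA 1, 2 and 3, also without overlap. SOX9, a transcription factor of glandular epithelium, had 1.98, 2.96 and 2.54 FPKM in LPS 1, 2 and 3 and 6.08, 4.57 and 7.27 in LPS+CsA 1, 2 and 3. Its groups did not overlap and its log2 difference was 0.99 ± 0.21 (adjusted p = 0.558). TUBE1, the epsilon-tubulin of centrioles, had 7.93, 7.93 and 11.6 FPKM in LPS 1, 2 and 3 and 19.7, 25.9 and 24.4 in LPS+CsA 1, 2 and 3. The LPS+CsA animals lay 2.54-fold above LPS on average, with a log2 difference of 1.27 ± 0.34, and the Control animals stood at 34.7, 24.5 and 38.7. PLS1, an actin-bundling protein of microvilli, had 0.951, 0.943 and 1.103 FPKM in LPS 1, 2 and 3 and 1.42, 3.02 and 3.56 in LPS+CsA 1, 2 and 3. VWA2, an extracellular matrix protein of basement membranes, had 3.32, 2.41 and 3.44 FPKM in LPS 1, 2 and 3 and 8.82, 10.5 and 6.53 in LPS+CsA 1, 2 and 3. For both, every LPS+CsA animal exceeded every LPS animal. Values of TTC39C were 4.39, 5.65 and 4.74 in the LPS animals and 10.3, 11.2 and 7.95 in the LPS+CsA animals, those of TMEM139 were 0.803, 1.16 and 1.43 in the LPS animals and 2.86, 4.38 and 2.63 in the LPS+CsA animals, and those of TMEM114 were 10.02, 9.32 and 8.105 in the LPS animals and 20.6, 20.5 and 25.2 in the LPS+CsA animals. These genes showed no overlap either, and their log2 differences were 0.86 ± 0.18, 1.00 ± 0.22 and 1.18 ± 0.34.

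**Figure D2:**
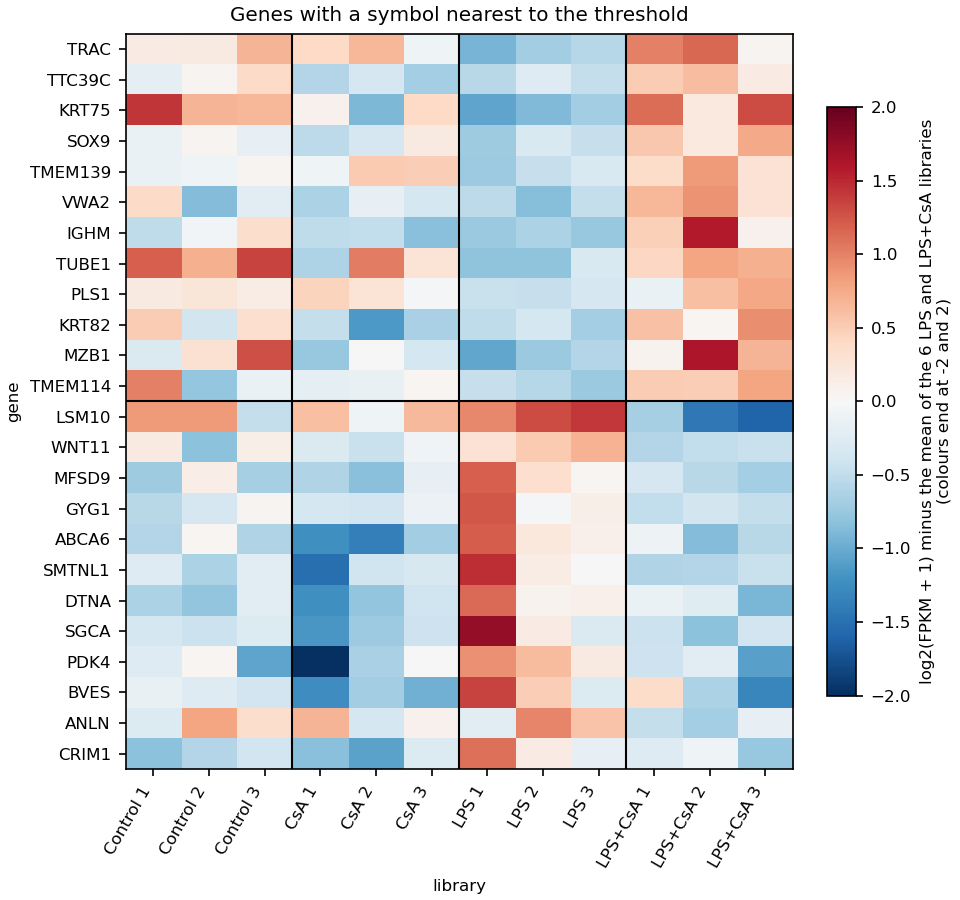
Log2(FPKM + 1) of the 24 genes with a symbol nearest to the threshold, 12 higher (above the line) and 12 lower (below it), in all 12 libraries. Colour is the distance from the gene's mean over the 6 LPS and LPS+CsA libraries, and 9 of the 12 lower genes have their darkest red in LPS 1.

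On the lower side, LSM10 lay nearest to the threshold of all genes. It encodes a subunit of the U7 particle that trims histone messenger RNAs. LSM10 had 13.7, 17.8 and 19.3 FPKM in LPS 1, 2 and 3 and 3.81, 1.83 and 1.51 in LPS+CsA 1, 2 and 3. The 3 LPS+CsA animals were the lowest of all 12 libraries, the mean was 7.09-fold lower than in LPS, and the log2 difference was -2.45 ± 0.37 (adjusted p = 0.438). In the authors' deposited table its counts were 34, 50 and 56 in the LPS animals against 8, 5 and 4 in the LPS+CsA animals, so the latter values rest on few counts. WNT11, a secreted ligand of the WNT family, had 2.496, 3.14 and 3.66 FPKM in LPS 1, 2 and 3 and 0.918, 1.04 and 1.11 in LPS+CsA 1, 2 and 3. Its groups did not overlap, the log2 difference was -1.01 ± 0.25 and the adjusted p was 0.569.

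LPS 1 held the highest value in 9 of the 12 lower genes with a symbol nearest to the threshold, and in 239 of the 404 genes (59.2%) that were lower at an unadjusted p under 0.05. LPS 2 and LPS 3 held it in 23.3% and 17.6% of the 404. Over all genes tested, LPS 1, 2 and 3 held the highest value in 24.6%, 11.7% and 10.4%. Genes chosen as lower had their maximum in an LPS library, so part of the rise in all 3 follows from the choice. Among the 600 higher genes, LPS 1 held the lowest value in 316 (52.7%), against 20.0% over all genes. Without LPS 1, 638 genes had an unadjusted p under 0.05, 408 higher and 230 lower. Its part in the difference was not tested beyond that.

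**Figure D3:**
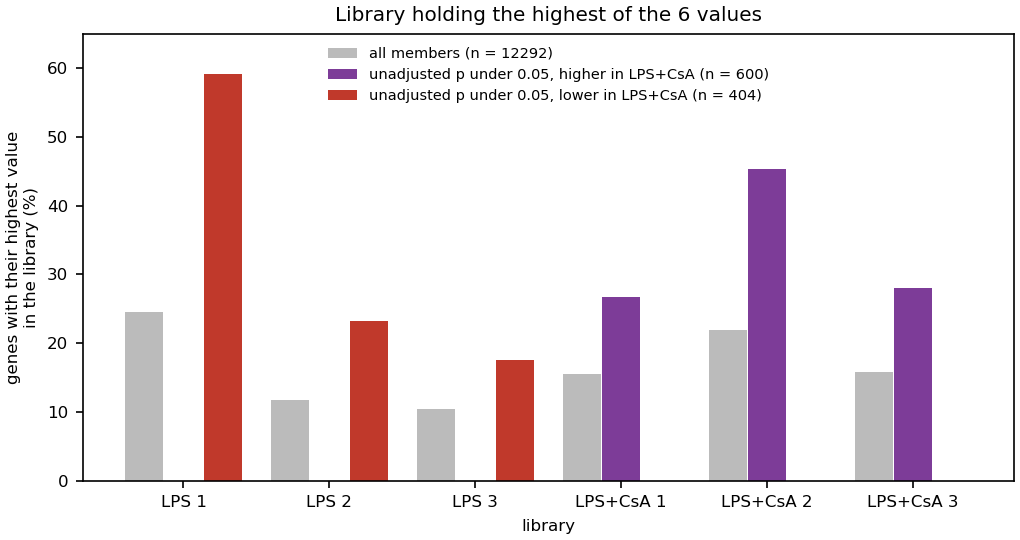
Share of genes (y axis, percent) with their highest of the 6 values in each library (x axis), for all 12292 genes and for the genes higher or lower in LPS+CsA at an unadjusted p under 0.05. LPS 1 holds the maximum in 59.2% of the lower genes and in 24.6% of all genes. A gene chosen as lower has its maximum in an LPS library. The empty bars and part of the rise from 24.6% to 59.2% therefore follow from the choice.

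Genes of muscle and of the dystrophin complex were among them. SGCA, alpha-sarcoglycan, had 13.8, 3.91 and 2.59 FPKM in LPS 1, 2 and 3 and 2.25, 1.48 and 2.37 in LPS+CsA 1, 2 and 3. LPS 1 stood far above the other 5 animals, and without it the log2 difference of -1.09 ± 0.42 became -0.48. DTNA, the dystrobrevin of the same complex, had 42.9, 20.2 and 20.5 FPKM in LPS 1, 2 and 3 and 17.3, 15.9 and 9.63 in LPS+CsA 1, 2 and 3. SMTNL1, a smoothelin-like protein of muscle, had 39.9, 15.3 and 13.7 FPKM in LPS 1, 2 and 3 and 8.74, 8.86 and 9.83 in LPS+CsA 1, 2 and 3. The log2 differences of DTNA and SMTNL1, -0.87 ± 0.32 and -1.08 ± 0.39, were -0.52 and -0.61 without LPS 1. BVES, a membrane protein of muscle that binds cyclic AMP, overlapped between the groups, with 38.4, 20.6 and 11.8 FPKM in LPS 1, 2 and 3 and 18.96, 9.002 and 5.28 in LPS+CsA 1, 2 and 3. Its log2 difference was -1.04 ± 0.43, and -0.63 without LPS 1. ACTC1, the cardiac actin, was the only measured member with a symbol of the smooth and striated muscle list, and its log2 difference was -0.63 without overlap.

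The remaining lower genes had other roles. GYG1, the glycogenin that primes glycogen, had 94.7, 38.9 and 42.7 FPKM in LPS 1, 2 and 3 and 27.8, 30.6 and 28.03 in LPS+CsA 1, 2 and 3. PDK4, a kinase that shuts off pyruvate dehydrogenase, had 10.5, 8.42 and 5.94 FPKM in LPS 1, 2 and 3 and 3.56, 4.22 and 1.88 in LPS+CsA 1, 2 and 3. ABCA6, a lipid transporter of the ABC family, had 6.94, 2.98 and 2.66 FPKM in LPS 1, 2 and 3 and 2.19, 0.883 and 1.33 in LPS+CsA 1, 2 and 3. All 3 genes were lower in every LPS+CsA animal than in any LPS animal, with log2 differences of -0.89 ± 0.28, -1.15 ± 0.47 and -1.02 ± 0.33 and adjusted p of 0.569, 0.606 and 0.579. Without LPS 1 the log2 differences were -0.49, -0.98 and -0.66. MFSD9, of the major facilitator superfamily of transporters, had 26.4, 14.1 and 11.3 FPKM in LPS 1, 2 and 3 and 8.44, 7.099 and 6.43 in LPS+CsA 1, 2 and 3, again without overlap. CRIM1, a transmembrane protein that binds bone morphogenetic proteins, had 73.2, 37.8 and 29.8 FPKM in LPS 1, 2 and 3 and 27.97, 31.6 and 19.5 in LPS+CsA 1, 2 and 3, and there LPS+CsA 2 exceeded LPS 3. Its log2 difference of -0.73 ± 0.32 was -0.36 without LPS 1. ANLN, the anillin of dividing cells, had 3.64, 9.66 and 7.06 FPKM in LPS 1, 2 and 3 and 2.92, 2.41 and 3.87 in LPS+CsA 1, 2 and 3, and was the one gene of the 12 besides LSM10 and WNT11 in which LPS 1 was not the highest.

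Plasma cell genes stood higher in LPS+CsA as a group. The list had 4 measured members with a symbol of 18, all 4 past an unadjusted p of 0.05 in the higher direction and all 4 without overlap, with a median log2 difference of 1.52 beside 0.01 over all genes. JCHAIN, the chain that joins IgA and IgM polymers, had 14.7, 21.7 and 20.4 FPKM in LPS 1, 2 and 3 and 65.7, 99.6 and 56.3 in LPS+CsA 1, 2 and 3. The lowest LPS+CsA value was above the highest LPS value by more than the range within LPS, and the log2 difference was 1.89 ± 0.54 (adjusted p = 0.569). MZB1, a chaperone of antibody-secreting cells, had 1.06, 1.53 and 1.83 FPKM in LPS 1, 2 and 3 and 3.45, 12.1 and 5.81 in LPS+CsA 1, 2 and 3. IGHM, the mu heavy chain, had 1.81, 2.03 and 1.796 FPKM in LPS 1, 2 and 3 and 5.55, 13.2 and 3.997 in LPS+CsA 1, 2 and 3. In both, LPS+CsA 2 was the highest library, and the log2 differences were 1.58 ± 0.44 and 1.43 ± 0.34. DERL3, a component of endoplasmic reticulum quality control, had 0.719, 3.25 and 2.39 FPKM in LPS 1, 2 and 3 and 5.01, 9.82 and 6.84 in LPS+CsA 1, 2 and 3. All 4 members are in the authors' list of this comparison, so they were picked on these animals. Without LPS 1, 3 of the 4 had an unadjusted p under 0.05, and without LPS+CsA 3 all 4 did.

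Genes without a symbol but with a deposited description were grouped by keyword after their values were seen. All 10 that are described as immunoglobulin chains stood higher in LPS+CsA, 8 of them at an unadjusted p under 0.05 and 8 without overlap, with a median log2 difference of 1.76. That count of 8 was 5 without LPS 1 and 7 without LPS+CsA 3. The authors' list of this comparison holds 8 of the 10 genes, so these were picked on these animals. ENSOCUG00000028063, described as an alpha chain constant region, had 2.62, 0.637 and 3.64 FPKM in LPS 1, 2 and 3 and 9.54, 14.8 and 20.1 in LPS+CsA 1, 2 and 3. A second gene with that description, ENSOCUG00000027549, had 2.296, 1.42 and 0.383 FPKM in LPS 1, 2 and 3 and 7.91, 21.5 and 4.903 in LPS+CsA 1, 2 and 3. ENSOCUG00000023169, described as an IgM heavy chain VDJ region, had 3.41, 6.203 and 5.07 FPKM in LPS 1, 2 and 3 and 41.7, 16.5 and 31.2 in LPS+CsA 1, 2 and 3. For all 3 the lowest LPS+CsA animal was above the highest LPS animal. The summed level of the 10 genes was 29.9, 36.7 and 44.3 FPKM in LPS 1, 2 and 3 and 161, 198 and 139 in LPS+CsA 1, 2 and 3, and 72.3, 79.1 and 221 in the Control animals and 15.6, 76.1 and 56.7 in the CsA animals. LPS+CsA thus lay above LPS in each animal, while Control 3 was the highest library of the series. Immunoglobulin genes share sequence, so reads could be split between them in counting.

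Red blood cell genes had higher means too. HBB2, a beta globin and one of the 5 most abundant genes with a symbol, had 108, 126 and 125 FPKM in LPS 1, 2 and 3 and 335, 119 and 249 in LPS+CsA 1, 2 and 3. LPS+CsA 2 lay within the LPS range and the other 2 animals above it, with a log2 difference of 0.84 ± 0.34. ALAS2, the heme synthesis enzyme of red cell precursors, had 1.43, 2.01 and 1.83 FPKM in LPS 1, 2 and 3 and 3.95, 1.66 and 3.02 in LPS+CsA 1, 2 and 3. LPS+CsA 2, highest for the plasma cell genes, was the lowest of its group for both globin and ALAS2. The 2 genes, of 17 in the erythroid list, summed to 109.7, 128 and 127 FPKM in LPS 1, 2 and 3 and 339, 120.3 and 252 in LPS+CsA 1, 2 and 3. The part of blood content in the plasma cell result was not tested.

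**Figure D4:**
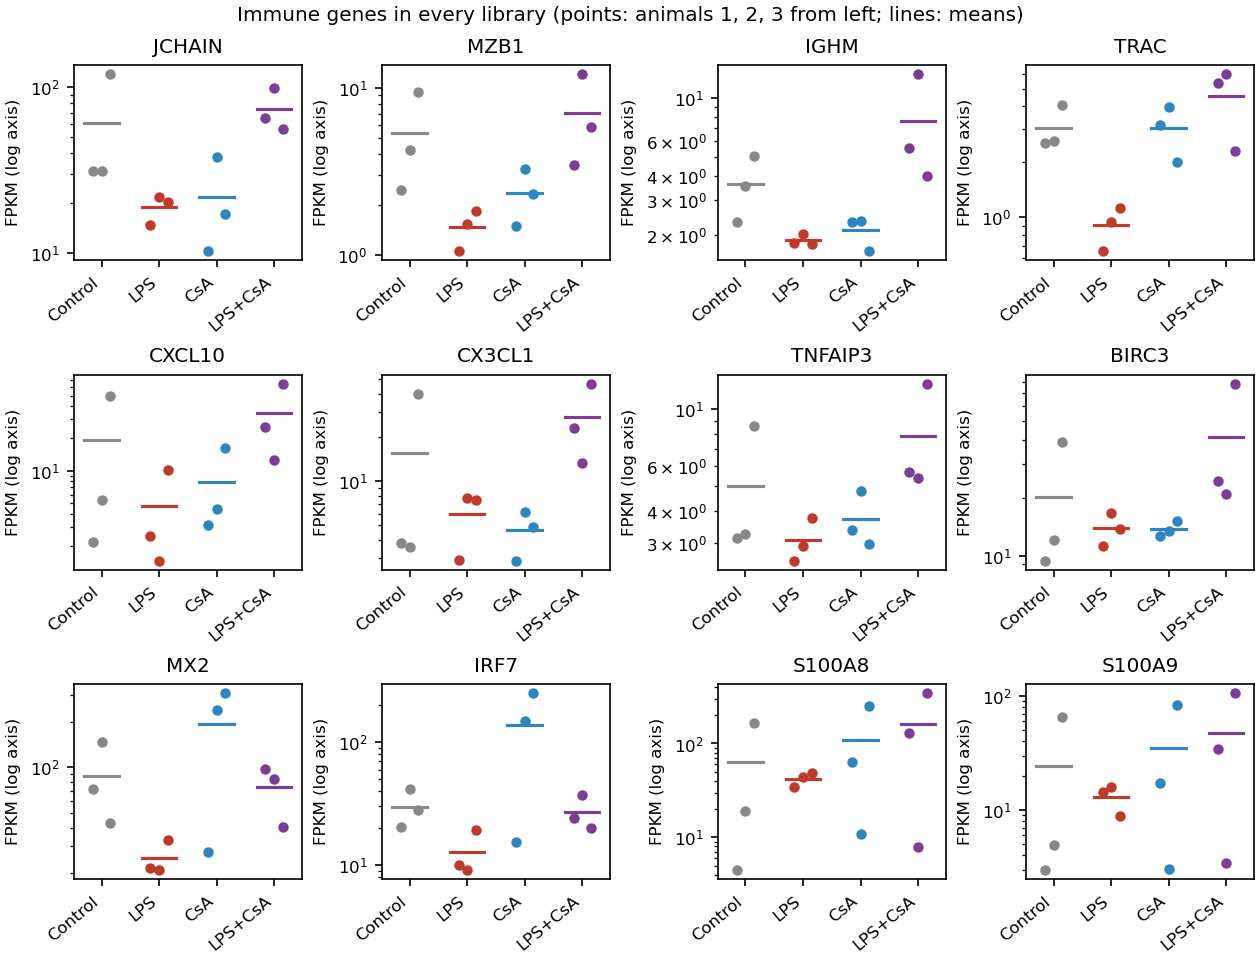
FPKM (y axis, log scale) of 12 immune genes in every library (points, animals 1 to 3 from left to right) with the mean of each group (line). Plasma cell genes, TRAC and the chemokines CXCL10 and CX3CL1 are separated between LPS (red) and LPS+CsA (purple), whereas S100A8 and S100A9 span the LPS values in LPS+CsA.

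Chemokines had the highest list median. The 3 measured members with a symbol, of 24, were higher in LPS+CsA without overlap, 2 of them at an unadjusted p under 0.05, and their median log2 difference was 1.96. All 3 are in the authors' list of this comparison, so they were picked on these animals. Without LPS 1, and likewise without LPS+CsA 3, 0 of the 3 had an unadjusted p under 0.05, and the medians were 1.58 and 1.51. CXCL10, which draws activated T cells and is induced by interferons, had 2.46, 1.46 and 10.1 FPKM in LPS 1, 2 and 3 and 25.3, 12.6 and 64.6 in LPS+CsA 1, 2 and 3. The lowest LPS+CsA animal was just above the highest LPS animal, LPS 3. The log2 difference was 2.65 ± 1.00 (adjusted p = 0.598), the mean was 7.32-fold that of LPS, and the animals of both groups spread widely. CX3CL1, the membrane-bound chemokine of endothelium and epithelium, had 2.88, 7.74 and 7.42 FPKM in LPS 1, 2 and 3 and 23.3, 13.4 and 46.8 in LPS+CsA 1, 2 and 3. CXCL11, a ligand of the same receptor as CXCL10, had 0.338, 0.76999 and 1.88 FPKM in LPS 1, 2 and 3 and 3.17, 2.07 and 3.31 in LPS+CsA 1, 2 and 3. The log2 differences were 1.96 ± 0.76 and 1.01 ± 0.47. CXCL8, the neutrophil attractant, lay outside the rule because it reached 1 FPKM in 2 of the 6 libraries. It had 0.607, 0.948 and 0.702 FPKM in LPS and 1.25, 0.741 and 6.06 in LPS+CsA, where LPS+CsA 3 stood alone.

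2 genes that are chemokines by description were highest in LPS+CsA 3 as well. ENSOCUG00000024425, described as permeability factor 2, had 20.7, 16.5 and 13.9 FPKM in LPS 1, 2 and 3 and 45.3, 14.6 and 80.6 in LPS+CsA 1, 2 and 3. Rabbit_newGene_2547 matches an eotaxin of another species and lies on chromosome 19 at 23731527 to 23733815, plus strand, with the genome build not given in the sources used here. It had 2.16, 1.903 and 3.24 FPKM in LPS 1, 2 and 3 and 4.12, 3.23 and 17.2 in LPS+CsA 1, 2 and 3. The groups overlapped for both, with log2 differences of 1.13 ± 0.83 and 1.11 ± 0.77.

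Feedback genes of NF-kB followed. All 5 measured members with a symbol, of 22, had higher means in LPS+CsA, 3 of them at an unadjusted p under 0.05 and 3 without overlap, and the median log2 difference was 1.04. The count of 3 was 2 without LPS 1 and 0 without LPS+CsA 3, where the median was 0.68. All 5 members are in the authors' list of this comparison, so they too were picked on these animals. Of the 174 listed genes tested, 90 had an unadjusted p under 0.05 (limma) and 109 did not overlap. The 2 counts of 3 of 5 are near these shares and do not set the list apart. TNFAIP3, the A20 enzyme that ends NF-kB signalling, had 2.57, 2.93 and 3.77 FPKM in LPS 1, 2 and 3 and 5.68, 5.38 and 12.5 in LPS+CsA 1, 2 and 3. BIRC3, an inhibitor of apoptosis in the TNF receptor complex, had 11.3, 16.8 and 13.7 FPKM in LPS 1, 2 and 3 and 24.4, 21.1 and 78.8 in LPS+CsA 1, 2 and 3. LPS+CsA 3 was the highest library for both, and without it the log2 differences of 1.04 ± 0.36 and 1.27 ± 0.53 were 0.69 and 0.68. BCL3, a nuclear IkB protein, had 22.9, 19.1 and 16.6 FPKM in LPS 1, 2 and 3 and 26.7, 20.1 and 64.6 in LPS+CsA 1, 2 and 3, so that only LPS+CsA 3 was far from LPS. TNFAIP8 had 2.13, 1.44 and 0.00109 FPKM in LPS 1, 2 and 3 and 3.05, 2.98 and 5.88 in LPS+CsA 1, 2 and 3, and LPS 3 with the Control animals was close to 0. SELE, the endothelial E-selectin that captures leukocytes, had 0.864, 0.898 and 1.26 FPKM in LPS 1, 2 and 3 and 1.48, 1.86 and 9.92 in LPS+CsA 1, 2 and 3. Its log2 difference of 1.09 ± 0.44 was 0.41 without LPS+CsA 3, and the groups did not overlap.

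Interferon-stimulated genes had higher means in LPS+CsA for 9 of 9 measured members with a symbol, of 37. None of the 9 had an unadjusted p under 0.05, 5 did not overlap, and the median log2 difference was 0.81. The authors' list of this comparison holds 5 of the 9. The symbols of the rest come from the authors' other tables, which use the same LPS animals. None of the 9 directions is therefore independent of the authors' choice. MX2, an antiviral GTPase whose deposited description names Mx1 instead, had 21.6, 20.9 and 33.1 FPKM in LPS 1, 2 and 3 and 98.1, 83.6 and 40.1 in LPS+CsA 1, 2 and 3. IRF7, the regulator of type I interferon genes, had 10.1, 9.07 and 19.4 FPKM in LPS 1, 2 and 3 and 24.3, 37.3 and 20.2 in LPS+CsA 1, 2 and 3. OAS2, which makes the activator of RNase L, had 1.402, 1.05 and 2.07 FPKM in LPS 1, 2 and 3 and 6.54, 3.53 and 2.68 in LPS+CsA 1, 2 and 3, and DDX60, an antiviral helicase, had 1.199, 1.06 and 1.91 FPKM in LPS 1, 2 and 3 and 2.696, 3.396 and 2.92 in LPS+CsA 1, 2 and 3. Every LPS+CsA animal was above every LPS animal in all 4, with log2 differences of 1.45 ± 0.78, 1.06 ± 0.80, 1.02 ± 0.78 and 0.76 ± 0.56. The CsA animals, which enter the shared spread, ranged widely, as with 15.5, 149 and 252 FPKM for IRF7. The summed level of the 9 genes was 80.6, 69.4 and 134 FPKM in LPS 1, 2 and 3 and 225, 205 and 149 in LPS+CsA 1, 2 and 3, and 169, 389.8 and 208 in the Control animals and 107, 842 and 1623 in the CsA animals. LPS 1 and LPS 2 were the lowest of the 12 libraries by this sum, and CsA 2 and CsA 3 the highest.

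The 6 interferon-induced genes known from a description gave 6 higher means, 1 at an unadjusted p under 0.05 and 3 without overlap, with a median of 0.97. Of these 6, 5 are in the authors' list of this comparison. ENSOCUG00000017251, described as guanylate-binding protein 1-like, had 2.68, 4.66 and 9.05 FPKM in LPS 1, 2 and 3 and 15.03, 11.6 and 32.5 in LPS+CsA 1, 2 and 3. ENSOCUG00000004197, described as an interferon-induced protein with tetratricopeptide repeats, had 2.51, 2.28 and 5.75 FPKM in LPS 1, 2 and 3 and 11.95, 8.01 and 9.91 in LPS+CsA 1, 2 and 3. The groups did not overlap for these genes, whose log2 differences were 1.67 ± 0.63 and 1.34 ± 0.93. Both belong to families of related genes, and whether reads were split between members was not tested.

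Neutrophil and antimicrobial genes had higher means, with the LPS+CsA animals far apart from each other. The 3 calgranulin genes S100A8, S100A9 and S100A12, of 16 genes in the neutrophil list, had a median log2 difference of 0.83, none at an unadjusted p under 0.05 and none without overlap. All 3 are in the authors' list of this comparison. S100A8 had 34.4, 44.1 and 48.2 FPKM in LPS 1, 2 and 3 and 129, 7.899 and 344 in LPS+CsA 1, 2 and 3. Animals 1 and 3 of LPS+CsA lay above all LPS animals, and animal 2 lay below them. The log2 difference of 0.78 ± 1.52 became -0.33 without LPS+CsA 3. S100A9 had 14.3, 15.9 and 8.95 FPKM in LPS 1, 2 and 3 and 34.01, 3.46 and 106 in LPS+CsA 1, 2 and 3, with the same order of the 3 LPS+CsA animals. S100A8 stood at 4.46, 19.1 and 166 FPKM in the Control animals and 62.7, 10.7 and 251 in the CsA animals. S100A9 stood at 2.97, 4.91 and 65.1 in Control and 17.2, 3.05 and 84.1 in CsA. The wide spread and the high animal 3 were thus not particular to LPS+CsA, and the LPS animals lay closer together. DMBT1, a mucosal protein that binds bacteria, had 22.1, 8.28 and 12.5 FPKM in LPS 1, 2 and 3 and 30.5, 38.96 and 6.15 in LPS+CsA 1, 2 and 3, and ACOD1, the itaconate-producing enzyme of activated macrophages, had 0.915, 0.885 and 1.898 FPKM in LPS 1, 2 and 3 and 4.14, 0.6304 and 7.33 in LPS+CsA 1, 2 and 3. The 5 antimicrobial and acute phase genes, which include the calgranulins, had a median of 0.83, and none had an unadjusted p under 0.05. Without LPS+CsA 3 the median was -0.14, 2 of the 5 were above LPS, and 1 had an unadjusted p under 0.05. The neutrophil median was then -0.15, with 0 of 3 above LPS. MSR1, a macrophage scavenger receptor, was lower in each LPS+CsA animal, with 2.66, 2.58 and 2.83 FPKM in LPS 1, 2 and 3 and 0.794, 0.648 and 1.604 in LPS+CsA 1, 2 and 3 and a log2 difference of -0.90 ± 0.51 (adjusted p = 0.6703).

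Class II antigen presentation genes went in both directions. RLA-DRB1, a beta chain of the rabbit class II molecule, had 19.2, 10.9 and 18.05 FPKM in LPS 1, 2 and 3 and 67.4, 31.4 and 33.8 in LPS+CsA 1, 2 and 3. It was higher in every LPS+CsA animal, with a log2 difference of 1.36 ± 0.40 (adjusted p = 0.569). ENSOCUG00000029731, described as a class II DRB1-4 beta chain-like gene, was lower in every one, with 1.34, 1.26 and 2.58 FPKM in LPS 1, 2 and 3 and 0.117, 0.0367 and 0.0379 in LPS+CsA 1, 2 and 3. It met the expression rule through the LPS animals alone and so had to differ, and the Control and CsA animals, at most 0.0704 FPKM, were as low as LPS+CsA. The 2 genes are related in sequence, and reads from different alleles could be assigned to either. A DQ alpha chain-like gene, ENSOCUG00000002480, had 27.4, 19.8 and 55.7 FPKM in LPS 1, 2 and 3 and 17.2, 9.25 and 19.9 in LPS+CsA 1, 2 and 3. CTSE, an aspartic protease of antigen processing, had 24.2, 34.1 and 10.5 FPKM in LPS 1, 2 and 3 and 11.04, 10.3 and 11.7 in LPS+CsA 1, 2 and 3. Both overlapped between the groups.

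PPIA, which encodes the cyclophilin that CsA binds, was the only measured member with a symbol of the 19 genes of calcineurin, NFAT and cyclophilins. It had 20.9, 25.001 and 22.5 FPKM in LPS 1, 2 and 3 and 10.8, 11.3 and 0.142 in LPS+CsA 1, 2 and 3. All LPS+CsA values lay below all LPS values, and LPS+CsA 3 was close to 0. PPIA stood at 0, 12.96 and 0.359 FPKM in the Control animals and 0.132, 23.5 and 0.113 in the CsA animals, so values near 0 and values above 10 occurred within each of these groups. The log2 difference was -2.11 ± 1.35 (adjusted p = 0.704), and -0.97 without LPS+CsA 3. Cyclophilin A has many near-identical copies in mammalian genomes, and its reads could be split between them, so the value of this single copy is uncertain. A gene described as ribosomal protein L3, ENSOCUG00000025196, also had values at or near 0 and above 10, and met the expression rule through LPS alone, with 14.6, 13.3 and 21.5 FPKM in LPS 1, 2 and 3 and 0, 0 and 0.0445 in LPS+CsA 1, 2 and 3, and with 0, 15.2 and 0 FPKM in the Control animals and 0, 28.2 and 28.4 in the CsA animals. The 5 genes described as ribosomal proteins had 3 higher and 2 lower means, with a median log2 difference of 0.03.

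Gland and luminal epithelium genes differed in direction. Of 5 measured members with a symbol, of 30, 3 were higher and 1 lower at an unadjusted p under 0.05, with a median log2 difference of 0.88. SOX9 and WNT11, given above, were the extremes. PLLP, a membrane proteolipid, had 2.71, 5.79 and 3.497 FPKM in LPS 1, 2 and 3 and 9.38, 7.27 and 7.15 in LPS+CsA 1, 2 and 3. SLC34A2, a sodium-dependent phosphate transporter, had 6.61, 7.76 and 9.398 FPKM in LPS 1, 2 and 3 and 16.02, 8.87 and 25.7 in LPS+CsA 1, 2 and 3. PLLP did not overlap and SLC34A2 did, with log2 differences of 0.88 ± 0.27 and 0.90 ± 0.37. The keratin list had 2 measured members with a symbol of 24, KRT75 and KRT82, both higher at an unadjusted p under 0.05.

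Ciliated cell genes had lower means, with 1 LPS animal far above the rest. FOXJ1, the master regulator of motile cilia, had 0.538, 11.5 and 2.86 FPKM in LPS 1, 2 and 3 and 3.09, 1.695 and 1.98 in LPS+CsA 1, 2 and 3. CDC20B, a gene of multiciliated cells, had 0.382, 9.98 and 1.603 FPKM in LPS 1, 2 and 3 and 1.64, 1.06 and 0.487 in LPS+CsA 1, 2 and 3, and C20orf85 had 1.18, 25.2 and 7.79 FPKM in LPS 1, 2 and 3 and 3.96, 2.76 and 2.15 in LPS+CsA 1, 2 and 3. LPS 2 was the highest library of all 12 for each of the 3. Without LPS 2, FOXJ1 went from -0.39 ± 0.60 to 0.39 and CDC20B from -0.76 ± 0.61 to 0.08. The list median over these 3 of 34 genes was -0.76, and none had an unadjusted p under 0.05. Without LPS 1, which was the lowest LPS animal for all 3, the median was -1.41 and all 3 had an unadjusted p under 0.05.

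Vascular genes were mixed, with 3 of 6 measured members above and 3 below LPS and a median of 0.03. EDN2, a vasoconstrictor peptide, had 47.4, 22.7 and 6.11 FPKM in LPS 1, 2 and 3 and 6.33, 15.98 and 0.674 in LPS+CsA 1, 2 and 3. PTGIS, which makes prostacyclin, had 90.8, 42.7 and 19.5 FPKM in LPS 1, 2 and 3 and 20.5, 32.1 and 12.1 in LPS+CsA 1, 2 and 3. LPS 1 was highest for both, the groups overlapped, and the log2 differences were -1.76 ± 0.85 and -1.05 ± 0.57. They were -1.13 and -0.51 without LPS 1, and EDN2 was -0.85 without LPS+CsA 3. The median of the 6 genes was -0.32 without LPS 1. AGTR1, the angiotensin II receptor, had 2.12, 1.73 and 2.06 FPKM in LPS 1, 2 and 3 and 0.899, 5.41 and 3.41 in LPS+CsA 1, 2 and 3, which is higher in LPS+CsA 2 and 3 and lower in LPS+CsA 1.

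The lists of hypoxia and glycolysis, of lipid handling and of glucocorticoid response had lower means. The authors' list of this comparison holds 1 of the measured genes of each. The other symbols come from the authors' other tables, which use the same LPS animals. The 4 measured genes of hypoxia and glycolysis were all lower, 1 of them at an unadjusted p under 0.05, with a median of -0.53. Without LPS 1 the median was -0.10, and without LPS+CsA 3 it was -0.13. CA9, a carbonic anhydrase induced by low oxygen, had 17.1, 4.99 and 6.01 FPKM in LPS 1, 2 and 3 and 4.15, 8.19 and 5.33 in LPS+CsA 1, 2 and 3. EGLN3, an oxygen-sensing prolyl hydroxylase, had 17.03, 7.1003 and 8.05 FPKM in LPS 1, 2 and 3 and 10.2, 12.4 and 1.51 in LPS+CsA 1, 2 and 3, and ENO2, an enolase of glycolysis, had 12.4, 5.92 and 3.27 FPKM in LPS 1, 2 and 3 and 7.03, 7.87 and 2.04 in LPS+CsA 1, 2 and 3. LPS 1 was the highest library for all 3. Their mean FPKM was 9.37, 10.7 and 7.20 in LPS and 3.87, 4.43 and 3.61 in Control. Genes picked for high LPS values can stand lower in any other group, so these directions are not independent evidence. The 3 genes of adipocytes and lipid handling were lower too, 1 at an unadjusted p under 0.05, with a median of -0.59. MEDAG, which takes part in fat cell formation, had 55.9, 36.5 and 46.2 FPKM in LPS 1, 2 and 3 and 34.6, 28.6 and 27.2 in LPS+CsA 1, 2 and 3, without overlap. KLF15, a transcription factor induced by glucocorticoids, had 81.8, 49.7 and 36.3 FPKM in LPS 1, 2 and 3 and 31.2, 41.4 and 7.97 in LPS+CsA 1, 2 and 3, and with PDK4 formed the glucocorticoid-responsive pair, whose median was -1.19 and -0.72 without LPS+CsA 3. The 2 measured members of the endoplasmic reticulum stress list went apart. CHAC1, an enzyme of the unfolded protein response, had 12.9, 4.19 and 5.28 FPKM in LPS 1, 2 and 3 and 6.28, 2.53 and 2.75 in LPS+CsA 1, 2 and 3, where LPS 1 was again the highest, and DERL3, given above, was higher without overlap, with log2 differences of -0.74 ± 0.46 and 1.45 ± 0.50.

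**Figure D5:**
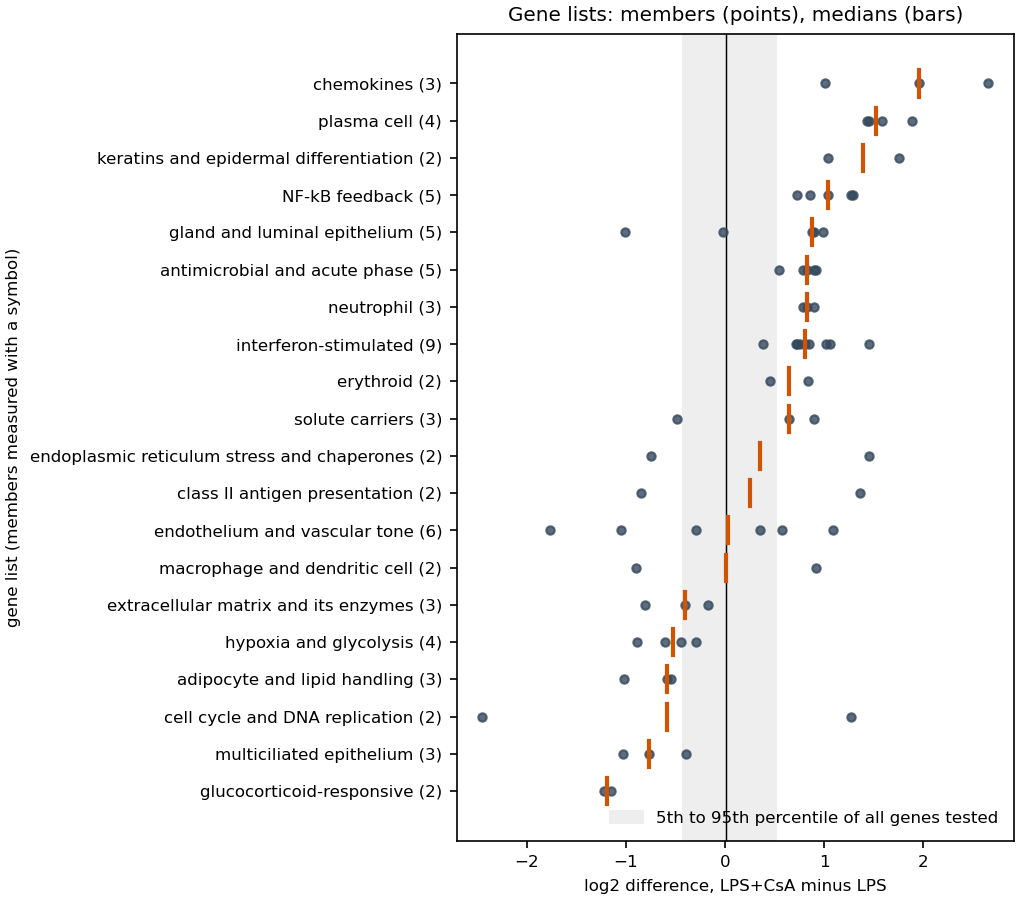
Log2 difference, LPS+CsA minus LPS (x axis), of every measured member with a symbol (points) of the 20 gene lists with 2 or more members (y axis, number of members in brackets). Orange bars are list medians, the grey band spans the 5th to 95th percentile of all 12292 genes (-0.43 to 0.52), and medians lie to its right for chemokine, plasma cell and other lists and to its left for glucocorticoid-responsive, multiciliated and other lists.

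Matrix genes and several abundant genes overlapped between the groups. MMP7, a matrix metalloproteinase of uterine epithelium and one of the most abundant genes with a symbol, had 939, 194 and 312 FPKM in LPS 1, 2 and 3 and 123, 278 and 722 in LPS+CsA 1, 2 and 3. CCN2, a matricellular growth factor, had 303, 217 and 137 FPKM in LPS 1, 2 and 3 and 125, 241 and 63.1 in LPS+CsA 1, 2 and 3. APOD, a lipocalin that carries small lipids, had 620.1, 335 and 249 FPKM in LPS 1, 2 and 3 and 270.1, 183 and 334 in LPS+CsA 1, 2 and 3. LPS 1 was the highest of the 6 libraries for all 3, and the log2 differences were -0.40 ± 0.66, -0.74 ± 0.49 and -0.55 ± 0.44. Without LPS 1 they were 0.24, -0.47 and -0.18. CPXM2, a carboxypeptidase-like matrix protein, had 45.9, 13.8 and 6.22 FPKM in LPS 1, 2 and 3 and 8.27, 15.4 and 5.101 in LPS+CsA 1, 2 and 3, and IBSP, bone sialoprotein, had 2.35, 0.954 and 0.952 FPKM in LPS 1, 2 and 3 and 1.41, 0 and 2.69 in LPS+CsA 1, 2 and 3. The 3 genes of the extracellular matrix list were lower, none at an unadjusted p under 0.05, with a median of -0.40. Without LPS 1 the median was 0.086, with 2 of the 3 above LPS. GREM1, an inhibitor of bone morphogenetic proteins from the stroma and decidua list, had 0.694, 0.109 and 0.667 FPKM in LPS 1, 2 and 3 and 1.02, 2.84 and 1.57 in LPS+CsA 1, 2 and 3. Every LPS+CsA animal was above every LPS animal, and it met the expression rule through LPS+CsA alone.

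Transporters were mixed. SLC5A12, a lactate transporter of epithelia, had 1.39, 1.43 and 1.32 FPKM in LPS 1, 2 and 3 and 6.71, 1.65 and 1.5001 in LPS+CsA 1, 2 and 3, where LPS+CsA 1 stood apart from the other 5 animals. SLC22A3, an organic cation transporter, had 48.7, 14.02 and 8.75 FPKM in LPS 1, 2 and 3 and 13.5, 24.6 and 6.15 in LPS+CsA 1, 2 and 3, where LPS 1 stood apart. KCNIP1, a subunit of potassium channels, had 28.4, 7.32 and 2.18 FPKM in LPS 1, 2 and 3 and 5.09, 4.12 and 0.676 in LPS+CsA 1, 2 and 3 and ADAMDEC1, a metalloprotease-like protein of macrophages and dendritic cells, had 91.04, 16.9 and 22.7 FPKM in LPS 1, 2 and 3 and 17.5, 12.2 and 1.88 in LPS+CsA 1, 2 and 3. Both were highest in LPS 1, with log2 differences of -1.30 ± 0.71 and -1.93 ± 0.85 that were -0.46 and -1.21 without it. SPA17, a sperm and cilia protein, had 0.957, 7.08 and 5.87 FPKM in LPS 1, 2 and 3 and 2.09, 1.44 and 0.971 in LPS+CsA 1, 2 and 3, and there LPS 1 was the lowest of the 6 libraries. IP6K3, an inositol phosphate kinase, had 0.511, 0.602 and 0.481 FPKM in LPS 1, 2 and 3 and 2.49, 1.05 and 4.06 in LPS+CsA 1, 2 and 3, where the rule was met through LPS+CsA alone.

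Assembled loci and unnamed genes were also among those with the smallest p. Rabbit_newGene_6663 and Rabbit_newGene_6664 match protein-arginine deiminase type-1 of rodents and lie on scaffold GL018915 at 311 to 4071 and 9891 to 16101, plus strand. Protein-arginine deiminases turn arginine into citrulline. The first had 7.04, 4.42 and 7.44 FPKM in LPS 1, 2 and 3 and 0.375, 2.88 and 1.18 in LPS+CsA 1, 2 and 3 and the second 13.4, 7.48 and 6.03 FPKM in LPS 1, 2 and 3 and 0.393, 3.41 and 0.866 in LPS+CsA 1, 2 and 3. Both were lower in all LPS+CsA animals, with log2 differences of -1.66 ± 0.46 and -2.08 ± 0.56, and whether they are parts of 1 transcript is not given in the files. Rabbit_newGene_5511, on scaffold GL018733 at 1379378 to 1382667, plus strand, matches a ligand of a natural killer cell receptor and had 0.757, 0.503 and 1.03 FPKM in LPS 1, 2 and 3 and 1.15, 2.28 and 1.87 in LPS+CsA 1, 2 and 3. A gene with the same description, ENSOCUG00000029474, had 0.0577, 0.432 and 0.856 FPKM in LPS 1, 2 and 3 and 2.33, 1.81 and 1.58 in LPS+CsA 1, 2 and 3. Both were higher in every LPS+CsA animal, and the latter met the expression rule through LPS+CsA alone.

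The genes without a symbol and with the smallest p differed as follows. ENSOCUG00000004055 had 8.43, 8.599 and 10.8 FPKM in LPS 1, 2 and 3 and 19.1, 19.5 and 16.6 in LPS+CsA 1, 2 and 3, and ENSOCUG00000016671 had 5.19, 6.24 and 4.95 FPKM in LPS 1, 2 and 3 and 9.45, 10.2 and 7.81 in LPS+CsA 1, 2 and 3. ENSOCUG00000017272 had 10.6, 9.12 and 8.59 FPKM in LPS 1, 2 and 3 and 5.52, 5.87 and 5.82 in LPS+CsA 1, 2 and 3. The groups were separate for all 3, with log2 differences of 0.92 ± 0.16, 0.65 ± 0.12 and -0.63 ± 0.13 and an adjusted p of 0.438 for the first and 0.558 for the last.

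The authors' deposited table of this comparison lists 234 genes, 157 higher and 77 lower in LPS+CsA, with unadjusted p-values up to 0.0488 and log2 fold changes of at least 1.00 in size. Of these, 174 met the expression rule (117 higher and 57 lower), which is 1.416% of the genes tested, and 60 did not. The sign was the same here for 173 of the 174, 90 had an unadjusted p under 0.05 in the limma fit, and 109 did not overlap. In the other direction, 26 of the 82 genes with an unadjusted p under 0.05 and a 2-fold difference are not in the authors' table. The median count of a listed gene was 76 to 118 per library, and 12 listed genes had fewer than 50 counts in every library. TMEM200C, outside the rule, had 0, 0 and 0 counts in the LPS animals and 48, 24 and 35 in the LPS+CsA animals in the authors' deposited table.

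Whether the CsA difference was particular to the LPS animals was tested as the difference between LPS+CsA minus LPS and CsA minus Control. No gene of 12292 passed (limma, smallest adjusted p = 0.474), and 367 genes (2.99%) had an unadjusted p under 0.05. That is below the 614.6 that would be counted at that rate under no difference, whereas the 1004 genes of the main comparison were above it. Without LPS 1 the main comparison gave 638. Genes are not independent of each other, so such counts can lie above or below 614.6 under no difference. TRAC differed by 1.49 ± 0.42 (adjusted p = 0.9997) on the log2 scale, JCHAIN by 3.21 ± 0.76 (adjusted p = 0.916) and CXCL10 by 3.13 ± 1.42 (adjusted p = 0.9997). LSM10 gave -2.43 ± 0.52 (adjusted p = 0.854) and IRF7 -0.46 ± 1.13 (adjusted p = 0.9997). JCHAIN stood at 31.1, 31.04 and 120.4 FPKM in the Control animals and 10.2, 38.2 and 17.1 in the CsA animals. CXCL10 stood at 2.15, 5.39 and 50.01 FPKM in the Control animals and 3.13, 4.45 and 16.1 in the CsA animals. LSM10 stood at 12.7, 12.7 and 4.47 FPKM in the Control animals and 10.5, 6.17 and 10.9 in the CsA animals. Control 3 was the highest Control animal for JCHAIN and CXCL10 and the lowest for LSM10.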

How the data were processed

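The series sequenced uterine body RNA of 12 rabbits, 3 per group. Per the submitters' processing notes, the authors used TopHat2, Cufflinks and Cuffnorm to obtain FPKM values. No source used here gives the versions, the genome build or the annotation. Per the file headers, the authors' deposited comparison tables hold, for listed genes, symbols, descriptions, read counts, a p-value and a log2 fold change. The deposited counts cover 234 genes of this comparison, so no library total and no count test across genes followed from them.

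FPKM values were analysed as log2(FPKM + 1), with a pseudocount of 1, using limma 3.58.1 in R 4.3.3 with a variance trend. The fit had 1 mean per group over all 12 libraries (8 residual degrees of freedom). Tests were two-sided, with Benjamini-Hochberg adjustment over 12292 genes. Folds of mean FPKM are ratios of group means. Tables and plots used Python 3.11.15, numpy 2.4.6, pandas 2.3.3 and matplotlib 3.10.9. The fit was checked on simulated data. The labels do not say that replicate numbers pair animals, so the model left them out. With 3 animals per group, an exact permutation test of a single value cannot go below 0.1.

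The genes and the 34 gene lists were chosen with earlier results of these data known. A symbol was held by no measured member in 4 lists and by 1 or 2 in 17, after leaving out items that are not reported here. Named genes were in each direction the 12 with a symbol and lowest p, up to 4 per list with 2 or more measured members, the 5 most abundant, the 6 highest and 6 lowest deposited fold changes among genes tested, CXCL8, PPIA, and the 2 genes without a symbol nearest to the threshold in each direction. Genes grouped by description, GREM1, TMEM200C and ACTC1 were chosen after their values were seen. No identifier matched the reference table of 38822 genes, so no sequences are given. Alternatives tried were median-of-ratios rescaling, quantile normalization, a pseudocount of 0.1, a filter at a mean of 5 FPKM, none at all, the 6 libraries alone, a fit without variance trend, the replicate block, and leaving out each library. List counts without LPS 1 or LPS+CsA 3 were added after seeing the data.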

Additional observations from a re-analysis of the deposited data

How the results depend on the processing

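No gene passed an adjusted p of 0.05 (limma) in the analysis as reported, where 1004 had an unadjusted p under 0.05. The count was also 0 with a pseudocount of 0.1, a mean of at least 5 FPKM, either rescaling, no variance trend, and the replicate block. It was 2 with no filter (ENSOCUG00000026042 and ENSOCUG00000029731) and 1 in a fit on the 6 libraries alone (ENSOCUG00000025196). Leaving out single libraries gave 0 to 1, the 1 being ENSOCUG00000025431 without LPS 1. The count at an unadjusted p under 0.05 was 638 to 1031 without single libraries, with 638 without LPS 1. With a 2-fold difference as well, 82 genes became 124 with a pseudocount of 0.1, 52 with a mean of at least 5 FPKM, and 92 to 134 without single libraries, with 134 without LPS 3. Genes without overlap numbered 2973 to 3444 without single libraries, since fewer values must be ordered. The interaction count of 0 was 0 to 1 without single libraries, with 1 without LPS 1. The replicate block gave 1155 genes at an unadjusted p under 0.05. Deviations of same-numbered LPS and LPS+CsA animals correlated at 0.12, 0.08 and 0.28 for numbers 1, 2 and 3. All were positive, but not all exceeded 0.1, and the numbers were not taken to pair animals. A factor shared by same-numbered animals was not tested beyond the replicate block. Of 78 named genes, 66 kept their sign under every alternative that gave a value. The sign turned for 12 when single libraries were left out, with these ranges of the log2 difference: CDC20B (-1.41 to 0.081), CA9 (-0.75 to 0.046), EGLN3 (-1.05 to 0.16), SLC22A3 (-0.98 to 0.19), S100A9 (-0.14 to 2.16), FOXJ1 (-1.12 to 0.39), AGTR1 (-0.033 to 0.84), ENO2 (-0.68 to 0.20), S100A12 (-0.15 to 2.06), MMP7 (-1.05 to 0.24), S100A8 (-0.33 to 2.31) and IBSP (-0.59 to 0.35). The cause was not tested. Read depth per library is unknown, so a precision from counts cannot be given, and genes near 1 FPKM are the least certain. No source used here says whether the authors' counts were rescaled.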
